A study of Mus musculus with 104 samples.

Results

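This account concerns 9 genes that mark GABAergic neurons, the cells that release the inhibitory transmitter GABA. They are Gad1, Gad2, Slc32a1, Pvalb, Gata2, Gata3, Tal1, Six3 and Sst, taken by name from the 45808 gene rows of a count table of single mouse nigral neurons, and all 9 were found in it. Their levels were followed over the libraries titled experiment and control, together with their detection beside Th, the gene of tyrosine hydroxylase, within single libraries.

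The series is about fluorescent reporters that make Lewy pathology, the protein inclusions of Parkinson disease, visible in the living brain. Neurons of the substantia nigra were drawn into patch pipettes from brain slices, 1 pipette per library. The titles name 38 libraries experiment and 66 control. The design text describes the picking of neurons of the pars compacta with inclusions of α-Syn-6H-EGFP, an alpha-synuclein reporter fused to the green fluorescent protein EGFP. What kind of neuron was taken as control is not in the labels, which also give no strain, age, injection or delay for either group. All of these libraries share the tissue label substantia nigra and the cell type label dopaminergic neuron.

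GABA is made from glutamate by 2 glutamic acid decarboxylases, encoded by Gad1 and Gad2, and is loaded into synaptic vesicles by the transporter encoded by Slc32a1. In the nigra, GABAergic projection neurons fill the pars reticulata and lie scattered among the dopaminergic neurons of the pars compacta, and many of them hold parvalbumin, the calcium-binding protein encoded by Pvalb. Gata2, Gata3 and Tal1 encode transcription factors that direct midbrain precursors to the GABAergic fate, Six3 encodes a homeodomain factor known from forebrain GABAergic neurons, and Sst encodes the peptide somatostatin. Some midbrain dopaminergic neurons also carry Gad transcripts and release GABA.

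The start regions of the 3 genes of GABA synthesis and loading are shown because GATA factors are among the genes followed here. The letters are from RefSeq on build GRCm38.p6, read 5′ to 3′ on the gene's strand, and cover the 250 bases before a RefSeq start, without bases that belong to an annotated exon. Capitals mark the GATA motif, searched on both strands as AGATAA and as AGATAG, and also as TGATAA and as TGATAG.
Gad1, chr2:70561879-70562041, plus strand: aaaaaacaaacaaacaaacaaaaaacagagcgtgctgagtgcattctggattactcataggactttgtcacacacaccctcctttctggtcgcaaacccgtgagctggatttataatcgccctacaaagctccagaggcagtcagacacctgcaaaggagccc
Gad2, chr2:22622077-22622204, plus strand: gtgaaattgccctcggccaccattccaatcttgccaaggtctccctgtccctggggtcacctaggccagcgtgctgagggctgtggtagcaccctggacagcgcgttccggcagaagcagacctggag
Slc32a1, chr2:158610508-158610757, plus strand: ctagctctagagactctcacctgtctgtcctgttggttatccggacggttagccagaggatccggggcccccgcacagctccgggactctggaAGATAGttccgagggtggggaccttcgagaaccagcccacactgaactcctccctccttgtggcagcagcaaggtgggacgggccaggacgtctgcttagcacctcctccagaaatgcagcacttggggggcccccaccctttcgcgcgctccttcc
The Slc32a1 window held 1 such motif, and the 250-base windows of Gad1 and Gad2 held 0. Of 32851 mouse promoter windows, 26.5% held at least 1, so its presence or absence is a description of the letters.

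Depth ran from 116567 to 3094036 gene counts per library in experiment, with a median of 960027, and from 153770 to 2577694 in control, with a median of 1039850. Markers of glia (astrocytes, microglia and oligodendrocytes) summed to a median of 1938 CPM (gene counts brought to the same total in each library) in experiment and 999.9 CPM in control. Th, whose product makes the precursor of dopamine, had counts in every library, but at 138 CPM in experiment 27, the lowest of all, which goes against its label. No label names the animal a library came from, and each group therefore counts as 1 sample. The groups were not tested against each other. The intervals of levels and ratios below cover counting error only, not the spread between neurons. Those of shares of libraries take the libraries as independent, which no label shows, and they do not compare the groups.

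Most of the genes were higher in experiment. Of the 9, 7 had a pooled CPM (summed counts of a group over its summed gene counts) at least 1.5-fold higher there, namely Gad1, Gad2, Slc32a1, Pvalb, Gata3, Tal1 and Sst, where 17.8% of the 14416 genes with at least 100 counts in all were this much higher. Gata2 was the 1 gene at least 1.5-fold lower, against a background of 24.5%. The median log2 ratio of the 9, experiment over control, was 1.35, and that of the 14416 genes was -0.06. A stricter base of 9113 expressed genes asked for a pooled CPM of at least 10 and a count in 25% or more of either group's libraries. It held Gad1, Gad2, Pvalb, Gata3 and Sst, all 5 of which were higher, against a background of 11.1% higher, and 0 of which were lower, against 15.5%. Gata3, at 3.75 CPM and in 19.7% of libraries in control, met both limits only through experiment. Sst, at 7.82 CPM in control, met the CPM limit only through experiment. For these genes, being higher is partly a result of the filter. On the same base, 9 of 10 astrocyte, 4 of 6 microglia and 3 of 7 oligodendrocyte markers were also at least 1.5-fold higher. Among the oligodendrocyte markers 1 was lower. The median log2 ratios of these lists were 1.58, 0.80 and 0.28, against 1.53 for the 5 genes. The part of glial RNA in the ratios was not tested. Gad1, Pvalb, Gata3 and Sst were also at least 1.5-fold higher when libraries were weighted equally and within both sets of titles described next, which held for 3.37% of the expressed genes. The count of 7 was unaltered without experiment 27. It was 6 without the 7 libraries in which Th was below 1500 CPM, where Gad2 (log2 ratio 0.56) and Tal1 (-0.19) missed 1.5-fold and Six3 (0.69) passed it. With the 11 libraries richest in glial markers left out it was 5, and there Gad2 (0.33) and Tal1 (0.35) missed it.

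These ratios have to be read beside the order of the titles. The libraries fall into 2 title sets, 21 experiment and 31 control in set 1 and 17 and 35 in set 2, which differ in how the control titles are written and which the labels do not call batches. Within set 1, experiment 1 to 7 and control 1 to 10 form the start of the list, and they were set apart only after their values were seen. Gad1 or Gad2 reached 100 CPM in 6 of those 7 experiment libraries and in 8 of those 10 control libraries. In the other libraries this was so for 11 of 31 experiment libraries and 7 of 56 control libraries. No source used here tells whether these first libraries were collected differently, and the part of this order in the ratios was not tested.

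**Figure D1:**
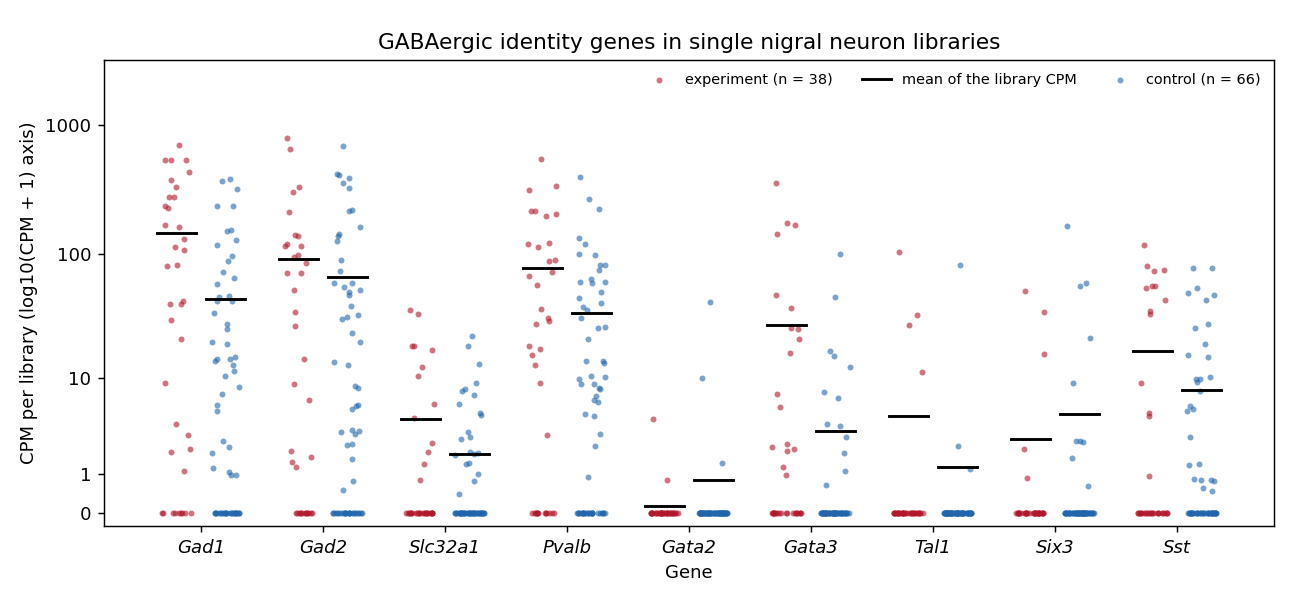
Level of each of the 9 genes in every library, on a log10(CPM + 1) axis, with experiment (38 libraries) left of control (66 libraries). Points are libraries and black bars the mean of the library CPM. All 9 genes had libraries at 0 in both groups, and the highest Gad1 value was 691 CPM in experiment and 376 CPM in control.

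Gad1, which encodes the larger decarboxylase, which supplies most GABA in neurons, ran from 0 to 691 CPM in experiment with a median of 41.6 CPM, and from 0 to 376 CPM in control with a median of 5.49 CPM. The ranges overlapped widely, although 24 of the 38 experiment libraries lay above the control median and 5 above the highest control. Pooled over libraries, Gad1 was at 164 CPM in experiment and 49.003 CPM in control, a ratio of 3.35 (95% interval 3.22 to 3.49). The ratio was 2.25 within title set 1 and 4.42 within set 2. The gene, ENSMUSG00000070880, spans chr2:70553072-70602014 on the plus strand of GRCm38. The promoter letters shown above lie within that span, since its annotated start is upstream of the RefSeq start used. Gad1os, an antisense gene that overlaps it, had 0 counts.

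Gad2, which encodes the smaller decarboxylase, found at synaptic terminals, ran from 0 to 782 CPM in experiment with a median of 11.7 CPM, and from 0 to 680 CPM in control with a median of 4.40 CPM. Only experiment 49 lay above the highest control, control 7. Pooled CPM was 99.2 in experiment and 63.6 in control, a ratio of 1.56 (1.49 to 1.63), and with equal weights the ratio was 1.39. The title sets disagreed in direction. In set 1 Gad2 was at 107.9 CPM in experiment and 155 CPM in control, a ratio of 0.696, and in set 2 at 89.2 CPM in experiment and 16.2 CPM in control, a ratio of 5.50. In the first-listed libraries alone it was at 179 CPM in experiment 1 to 7 and 257 CPM in control 1 to 10. Gad2 lies at chr2:22622205-22693874, plus strand, and shares no exon base with another gene.

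Slc32a1, whose product VGAT loads GABA into vesicles, was sparse. It had a count in 13 of 38 experiment libraries and 22 of 66 control libraries, and its median was 0 in both groups. Its highest values were 35.9 CPM in experiment 7 and 22.2 CPM in control 5. Pooled CPM was 5.20 in experiment and 1.94 in control, a ratio of 2.69 (2.16 to 3.34), at 2.31 in set 1 and 2.64 in set 2. The share of libraries with a count was thus alike, at 34.2% in experiment and 33.3% in control, and the groups differed in the level of the libraries that had it. Of its exon bases, 697 are shared with Gm14205, and the strand setting of the counting is not given, so reads of this pair cannot be told apart.

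Pvalb had counts in 25 of 38 experiment libraries and 41 of 66 control libraries. Its median was 23.3 CPM in experiment and 7.61 CPM in control, with highest values of 546 CPM in experiment 21 and 390 CPM in control 30. Of the experiment libraries, 24 lay above the control median but only 1 above the highest control. Pooled CPM was 90.7 in experiment and 31.4 in control, a ratio of 2.89 (2.74 to 3.04), at 2.18 in set 1 and 2.56 in set 2. Pvalb lies at chr15:78191114-78206400 on the minus strand.

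Per kilobase of exon, Pvalb was the most abundant of the 9 genes in both groups, at 87.1 CPM per kilobase in experiment and 30.2 in control. Sst followed in experiment at 27.2, then Gad1 at 21.5 and Gad2 at 16.9. In control Sst and Gad2 were both at 10.8, above Gad1 at 6.41. Slc32a1, at 1.86 in experiment and 0.693 in control, was far below both decarboxylase genes on this scale. The same quantity was 2232 in experiment and 4114 in control for Th.

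Among the fate-determining factors, Gata3 showed the widest gap between groups. It had a count in 18 of 38 experiment libraries and 13 of 66 control libraries, with a median of 0 in both and highest values of 356 CPM in experiment 3 and 100.1 CPM in control 5. After every library was thinned to 400000 counts (4 experiment and 6 control libraries were shallower and were not used), Gata3 was found in 47.1% of experiment libraries (29.8% to 64.9%) and 18.3% of control libraries (9.52% to 30.4%), both exact binomial intervals. Pooled CPM was 31.9 in experiment and 3.75 in control, a ratio of 8.49 (7.45 to 9.70), at 5.63 in set 1 and 10.8 in set 2. Few libraries carried these sums, since experiment 2 alone held 41.9% of the experiment counts and control 5 held 50.2% of the control counts. Of the exon bases of Gata3, at chr2:9857078-9890034 on the minus strand, 232 are shared with other annotated genes.

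Tal1, the gene of a helix-loop-helix partner of GATA factors, was found in only 4 experiment and 3 control libraries. It reached 103 CPM in experiment 49 and 81.9 CPM in control 60, which alone held 53.1% of the experiment counts and 96.9% of the control counts. The pooled ratio of 2.55 (2.02 to 3.22) therefore compares a handful of neurons. It was lost when the 7 libraries with Th below 1500 CPM were left out, where the log2 ratio was -0.19. Each of the 5 libraries with Tal1 at 10 CPM or more (experiment 5, 37, 38 and 49 and control 60) was among the 8 libraries highest in Gad1, all of which had at least 366.8 CPM of Gad1. The number 8 is the lowest Gad1 rank among these 5, so that all 5 lie within it follows from the choice. Below 10 CPM, Tal1 had counts in control 53, with 8.46 CPM of Gad1, and in control 16, with a Gad1 level of 0.

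Gata2 was close to absent. It had 9 counts over 2 experiment libraries and 108 counts over 3 control libraries, and control 40 held 94.4% of the control counts. That library, at 41.7 CPM of Gata2, had no count of Gad1 or Gad2. The ratio of 0.154 (0.069 to 0.304) thus rests on 1 neuron of the control group, and leaving out the highest library of each group left no call in either direction. Gata2 and Tal1 shared no library, but with counts in only 4.81% and 6.73% of all libraries this says nothing about the pair.

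Six3 was at 2.74 CPM pooled in experiment and 2.73 CPM in control, a ratio of 1.00 (0.788 to 1.27), but the ratio was 0.548 in set 1, 1.78 in set 2 and 0.563 with equal weights. In the first-listed libraries it was at 0 in experiment and 6.88 CPM in control. The title sets thus passed 1.5-fold in opposite directions. It had counts in 5 experiment and 10 control libraries, with highest values of 50.5 CPM in experiment 13 and 165 CPM in control 36. Control 36 had a Gad1 level of 0. Of the 7 libraries with Six3 at 10 CPM or more, 3 had Gad1 or Gad2 at 100 CPM or more (42.9%), against 30.8% of all libraries. Six3 shares 274 exon bases with Six3os1 and a gene model, so its few reads are uncertain.

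Sst had counts in 14 of 38 experiment libraries and 28 of 66 control libraries, a median of 0 in both, and highest values of 116 CPM in experiment 21 and 77.2 CPM in control 5. Pooled CPM was 19.6 in experiment and 7.82 in control, a ratio of 2.51 (2.25 to 2.80), at 1.88 in set 1 and 2.38 in set 2. It was at 10 CPM or more in 10 of 38 experiment libraries and 12 of 66 control libraries, and after thinning it was found in 41.2% of experiment libraries and 30.0% of control libraries. In the first-listed libraries it was at 19.97 CPM in experiment and 25.6 CPM in control.

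**Figure D2:**
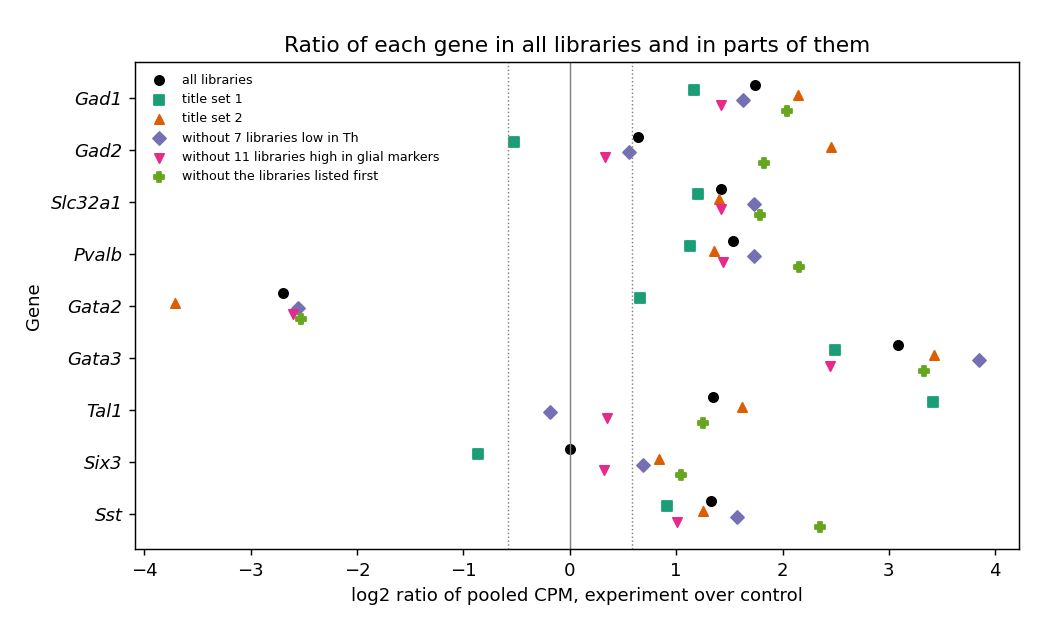
Log2 ratio of pooled CPM, experiment over control, for each of the 9 genes in all libraries, in each title set, and without 3 groups of libraries. The solid line marks no difference and dotted lines a 1.5-fold difference. Gad1, Slc32a1, Pvalb, Gata3 and Sst lie right of 0 at every point drawn, while Gad2, Gata2, Tal1 and Six3 cross it.

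The second question is which of these transcripts met in 1 library with Th. Every library had counts of Th, Slc6a3 (the dopamine transporter), Slc18a2 (the vesicular monoamine transporter) and Ddc (the decarboxylase that makes dopamine). In all, 87 libraries had Th and at least 1 of Gad1, Gad2 and Slc32a1, 32 of 38 in experiment and 55 of 66 in control. Gad1 and Gad2 were found together in 23 experiment libraries (60.5%, 43.4% to 76.0%) and 32 control libraries (48.5%, 35.99% to 61.1%). All 3 genes met in 10 of 38 experiment libraries and 14 of 66 control libraries. Of the 35 libraries with Slc32a1, 30 also had a decarboxylase transcript, but such transcripts were common, with counts in 82 libraries in all. Gad1 was found in 82.9% of the libraries with Slc32a1, against 67.3% of all libraries. For Gad2 these shares were 71.4% and 64.4%. The differences were not tested.

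A single count is a low bar at this depth. At 100 CPM or more, Gad1 or Gad2 was found in 32 libraries, 17 of 38 in experiment (44.7%, 28.6% to 61.7%) and 15 of 66 in control (22.7%, 13.3% to 34.7%). In title set 1 this was so for 10 of 21 experiment and 13 of 31 control libraries, and in set 2 for 7 of 17 experiment and 2 of 35 control libraries. All 32 also had counts of Th, Slc6a3, Slc18a2 and Ddc, as every library did. A pipette that held the content of neighbouring cells and a neuron that carried both sets of transcripts cannot be told apart in such libraries.

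**Figure D3:**
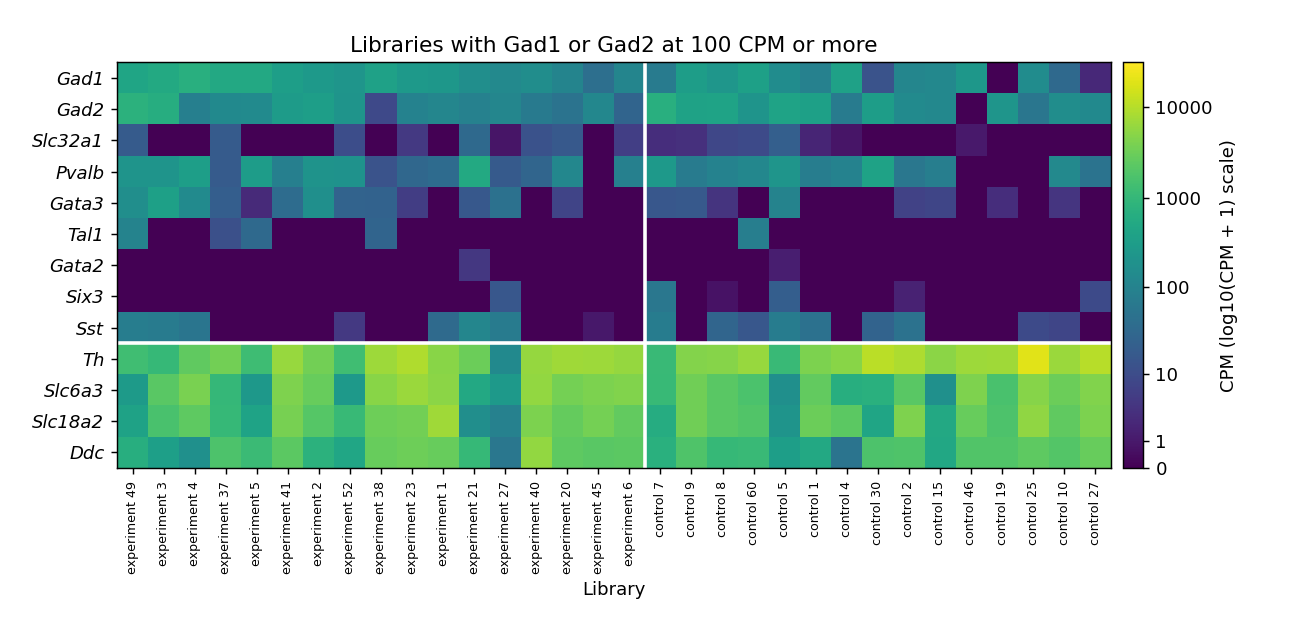
Level of the 9 genes (above the white line) and of 4 dopaminergic genes (below it) in the 32 libraries with Gad1 or Gad2 at 100 CPM or more, 17 experiment left and 15 control right, each sorted by the sum of Gad1, Gad2 and Slc32a1, on a log10(CPM + 1) colour scale. Th is above 100 CPM in all of them, while Gata3, Tal1 and Sst fill only some columns.

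The libraries rich in decarboxylase transcripts did not share a fixed mixture of them. Both genes were at 100 CPM or more in 9 experiment and 6 control libraries, Gad1 alone in 7 experiment and 3 control libraries, and Gad2 alone in 1 experiment and 6 control libraries. The share of Gad1 in the summed Gad1 and Gad2 counts had a median of 67.2% in the 17 experiment libraries, ranging from 26.5% to 97.6%, and of 36.6% in the 15 control libraries, ranging from 0% to 100%. Experiment 38 had 369 CPM of Gad1 and 8.89 CPM of Gad2, control 46 had 235 CPM of Gad1 and 0 of Gad2, and control 7 had 72.1 CPM of Gad1 and 680 CPM of Gad2. These 32 libraries were picked by the level of the same genes, so the shares are a description.

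Th was low where the GABAergic genes were high. The 9 libraries lowest in Th, 7 experiment and 2 control with at most 3093 CPM, all had Gad1 or Gad2 at 100 CPM or more, against 23 of the other 95 libraries. The number 9 was not set beforehand but is where the unbroken run of such libraries ended, so that all 9 had it follows from the choice. The next library, experiment 13 at 3173 CPM of Th, had 80.3 CPM of Gad1 and 1.30 CPM of Gad2. Counts of Gata3 and of Pvalb were present in all 9, from 2.45 to 356 CPM for Gata3 and from 17.6 to 546 CPM for Pvalb. Of the 15 libraries with Gata3 at 10 CPM or more, 8 were among these 9. Sorted by Th, the lower 52 libraries held 26 of the 32 libraries rich in Gad1 or Gad2 and the upper 52 held 6.

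Some libraries departed from this. Control 25 had 150.7 CPM of Gad1 and 58.4 CPM of Gad2 at 20201 CPM of Th, the second highest Th level of all libraries, and control 30 had 325 CPM of Gad2 and 390 CPM of Pvalb at 10711 CPM of Th. Experiment 3 kept 2239 CPM of Slc6a3 and 1642 CPM of Slc18a2 at a Th level of 1047 CPM. In experiment 4, Th was at 2477 CPM and Ddc at 182 CPM, but Slc6a3 was at 3899 CPM. Experiment 27 was low in all of them, at 256 CPM of Slc6a3, 95.9 CPM of Slc18a2 and 59.1 CPM of Ddc. Its glial marker sum of 15033 CPM was the second highest, after experiment 52 at 15375 CPM, which also had Th below 1500 CPM. The other 7 of the 9 libraries lowest in Th had glial sums between 3879 CPM in experiment 5 and 7350 CPM in experiment 49, above the median of both groups. The part of glial RNA in these libraries was not tested.

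**Figure D4:**
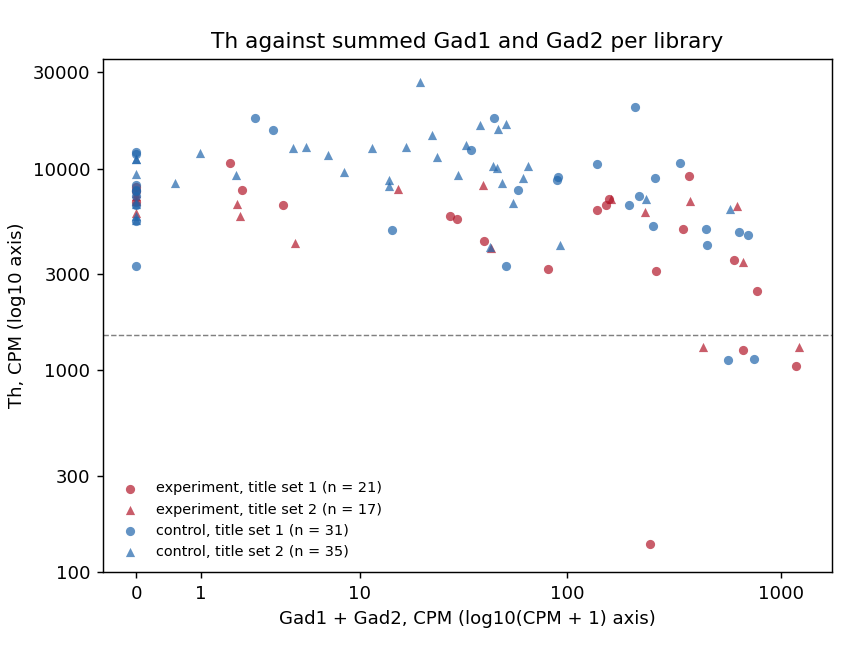
Th (log10 axis) against the sum of Gad1 and Gad2 (log10(CPM + 1) axis) in each library, by group and title set. The dashed line marks 1500 CPM of Th. The 7 libraries under it, 5 experiment and 2 control, all lie far right, and libraries without Gad1 or Gad2 counts all lie above it.

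Over all libraries of both groups, Gad1, Gad2, Pvalb and Gata3 varied together, and other pairs of the 9 genes did so less or not at all. Spearman's rho is given as a description with no p, since the values share library, depth and a common total. It was 0.61 between Gad1 and Gad2, 0.62 between Gad1 and Pvalb and 0.63 between Gad2 and Pvalb, where the median of the expressed genes with Gad1 was -0.04. Gata3 stood at 0.51 with Gad1, 0.53 with Gad2 and 0.53 with Pvalb, while Slc32a1 stood at only 0.29 with Gad1 and 0.24 with Gad2. Six3 stood at 0.02 with Gad1 and -0.11 with Tal1, and Gata2 was not paired with other members. The values among Gad1, Gad2, Pvalb and Gata3 were lower in title set 2. There Gad1 stood at 0.47 with Gad2 and 0.43 with Pvalb, and Gad2 at 0.41 with Pvalb. Gata3 stood there at 0.34 with Gad1, 0.27 with Gad2 and 0.34 with Pvalb, against 0.61, 0.67 and 0.63 in set 1. The pair of Gad1 and Gad2 stood at 0.82 in experiment and 0.46 in control, a difference that was not tested.

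Against Th, rho was -0.40 for Gad1, -0.31 for Gad2, -0.43 for Pvalb and -0.52 for Gata3. Of 9112 expressed genes, 1 had a lower rho with Gata3 than Th did, against 8 with Pvalb, 12 with Gad1 and 154 with Gad2. Without the 7 libraries low in Th, rho of Gata3 and Th was -0.39. Without the first-listed libraries rho with Th was -0.21 for Gad1, -0.10 for Gad2, -0.27 for Pvalb and -0.44 for Gata3. In title set 2 it was -0.22 for Gad1, -0.11 for Gad2, -0.26 for Pvalb and -0.50 for Gata3. Against Ddc rho was -0.53 for Gad2 and -0.52 for Gata3. For Gad1 and Th it was -0.59 in experiment and -0.14 in control. Gad1 and Gad2 also varied with the glial marker sum, at 0.37 and 0.44, whose part was not tested.

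Among the 5 expressed genes most like Gad1 over all libraries were Pvalb, Gad2, Nefm at 0.54 and Stxbp6 at 0.53. Nefm and Nefl encode neurofilament subunits, which are abundant in thick, fast-firing axons. For Pvalb the list held Nefl at 0.65, Gad2, Gad1 and Nefm, and for Gad2 it held Pvalb, Gad1, Nefm and Nefl. Nefm was at 322 CPM in experiment and 181 CPM in control, and Nefl at 338 CPM in experiment and 209.6 CPM in control. For Gata3 the list was Ermn at 0.53, C1ql2 at 0.53, Gad2, Pvalb and Vamp1 at 0.51. Gata3 and C1ql2 stood at 0.70 in title set 1 and 0.20 in set 2. Ermn is a gene of myelinating oligodendrocytes, and C1ql2 encodes a secreted synaptic protein of the C1q family.

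Slc32a1 had a different list, in which neither decarboxylase appeared. It held Npas3, a neuronal transcription factor, at 0.52, Htr2c, a serotonin receptor, at 0.43, Nat8l, the enzyme that makes N-acetylaspartate, at 0.40 and Cnr1, the cannabinoid receptor, at 0.37. Cnr1 and Npas3 both had counts in 32 libraries. Npas3 was at 4.51 CPM in experiment and 22.8 CPM in control, opposite in direction to Slc32a1.

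Of 12 genes of GABA uptake, breakdown and precursor supply, 9 were expressed, 2 were at least 1.5-fold higher and 1 lower, against 11.1% higher and 15.5% lower over all expressed genes, with a median log2 ratio of -0.08. Aldh1a1, an aldehyde dehydrogenase gene of dopaminergic neurons that has been linked to their GABA synthesis, was at 1568 CPM in experiment and 709.8 CPM in control, a ratio of 2.21. Its log2 ratio was -0.19 in title set 1 and 2.39 in set 2, so the sets disagreed. Glul, the glutamine synthetase gene and itself an astrocyte gene, was at 74.3 CPM in experiment and 37.8 CPM in control. The part of astrocyte RNA in this was not tested. Maob, a monoamine oxidase gene, was lower, at 9.14 CPM in experiment and 33.6 CPM in control. Abat, whose product breaks GABA down, was within 1.5-fold, at 186 CPM in experiment and 211 CPM in control.

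Of 14 GABA-A receptor subunit genes, 10 were expressed, 0 were at least 1.5-fold higher and 2 were lower, near the 15.5% of expressed genes that were lower, and their median log2 ratio was -0.35. Gabra3 was at 10.1 CPM in experiment and 19.9 CPM in control, and Gabrg3 at 9.16 CPM in experiment and 21.5 CPM in control. Of 9 channel and neurofilament genes known from pars reticulata projection neurons, 8 were expressed. Only Nefm was at least 1.5-fold higher, with the levels given above, where 11.1% of expressed genes were this much higher. Its log2 ratio was 0.42 in title set 1, short of 1.5-fold, and 0.78 in set 2. Kcnc1, a Kv3 channel gene that serves fast firing, was at 52.7 CPM in experiment and 46.8 CPM in control. The median log2 ratio of the 8 was 0.04.

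Of 11 peptide and calcium-binding genes of other GABAergic subtypes, 4 were expressed and 3 of these were at least 1.5-fold lower, with a median log2 ratio of -0.69, where 15.5% of expressed genes were lower. Calb1, the calbindin gene, was at 89.7 CPM in experiment and 552 CPM in control, Calb2, the calretinin gene, at 240 CPM in experiment and 403 CPM in control, and Cck, the cholecystokinin gene, at 130.1 CPM in experiment and 202 CPM in control. These 3 genes are also expressed by dopaminergic neurons. Nos1, the neuronal nitric oxide synthase gene, was the other expressed one, at 14.2 CPM in experiment and 10.2 CPM in control. The dopaminergic list of 16 had 14 expressed genes, of which 0 were higher and 5 lower, Th among them at 5277 CPM in experiment and 9726 CPM in control.

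Of 18 other transcription factor genes known from midbrain or forebrain GABAergic neurons, 3 were expressed. Lmo4 was at 105.6 CPM in experiment and 72.7 CPM in control and Lmo1 at 28.1 CPM in experiment and 21.9 CPM in control, both within 1.5-fold. Foxp2 was at least 1.5-fold lower, at 35.4 CPM in experiment and 87.5 CPM in control, where 15.5% of expressed genes were this much lower. Its log2 ratio was -2.82 in title set 1 and -0.23 in set 2, within 1.5-fold there. Dlx5, Six6 and Helt had 0 counts in the table.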

How the data were processed

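Single-neuron RNA was turned into cDNA by the Smart-seq2 protocol and then into libraries (HyperPlus kit), per the labels' protocols. What the authors deposited is 1 table of raw counts of reads per gene for 104 libraries. The submitters' processing notes name STAR 2.5.3a, featureCounts 1.5.3 and build mm10; no source used here gives the annotation or the strand setting. The 92 ERCC spike-in rows were kept out of library totals.

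Counts were summed per group and divided by its summed gene counts (pooled CPM, exact Poisson 95% interval); ratios, experiment over control, carry exact binomial intervals. Group sums below 3 were raised to 3. Reads have no molecular identifiers, so these intervals cover counting error only. Shares of libraries carry exact binomial intervals over libraries. A count model was not fitted across groups, as no animal is named; edgeR 4.0.16 and DESeq2 1.42.0 gave scaling factors only, for alternatives. The scripts ran in Python 3.11.15 and were checked on simulated data. No pair of the 5356 library pairs was identical. Sequences and gene positions come from RefSeq and GENCODE.

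The 9 genes, the lists, the 1.5-fold size rule and the naming rule were chosen with earlier results of these data known. The naming rule took the 9 genes, 4 dopaminergic genes, up to 6 expressed genes per list by absolute log2 ratio, and the 5 expressed genes with the highest rho for Gad1, Gad2, Slc32a1, Pvalb and Gata3. Other genes were chosen after their values were seen. A few genes that the rule takes are not reported here.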

Additional observations from a re-analysis of the deposited data

How the results depend on the processing

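No paired analysis was possible because the ratios come from no test and the labels pair no libraries. Over 13 alternative settings, Gad1 (1.00 to 2.17 on the log2 scale), Gata3 (1.72 to 3.89), Slc32a1 and Pvalb were higher in experiment in each. Expressed genes had a median log2 ratio of -0.03 with pooled CPM, -0.38 with mean log2(CPM + 1), whose values are given relative to that median, and -0.78 per ERCC count, whose values are not. The count of 7 genes at least 1.5-fold higher was 6 with equal weights and with DESeq2 size factors, and 5 per ERCC count. It was 3 in the libraries listed first (experiment 1 to 7, control 1 to 10), and 8 without them and in title set 2. The count of 1 lower gene was 2 with equal weights, with DESeq2 size factors and per ERCC count, and 0 with mean log2(CPM + 1), without the highest library of each group and over expressed genes only. Directions reversed for Gad2 per ERCC count (-0.11, above the median of that setting), in title set 1 (-0.52) and in the first-listed libraries (-0.52). They also reversed for Gata2 in set 1 (0.66) and in the first-listed libraries (0.39). With mean log2(CPM + 1) Gata2 stood at 0.31, but only because the median of -0.38 was subtracted, and before that it was lower in experiment. Tal1 reversed without the libraries low in Th (-0.19) and Sst in the first-listed libraries (-0.36). The cause was not tested. Libraries with all of Gad1, Gad2 and Slc32a1, 24 in all, numbered 7 at 10 CPM, 0 at 100 CPM, 14 after thinning to 200000 counts, and 11 and 13 in the title sets, which hold fewer libraries. Libraries with Th and any of the 3, 87 in all, numbered 32 at 100 CPM and 41 and 46 in the title sets. The settings that left out low-Th or first-listed libraries were chosen after seeing the data. Depth limits what a single library can show of Slc32a1, Gata2, Tal1 and Six3, where a count of 0 does not mean absence.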

Other observations

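Some transcription factor genes of the GABAergic list had too few libraries to count as expressed but stood apart in a handful of neurons; they were picked after their values were seen. Sox14, a factor of GABAergic neurons of the thalamus and midbrain, had 710 counts in 8 experiment libraries and 4 counts in 2 control libraries, or 17.7 CPM pooled in experiment and 0.054 CPM in control. The ratio was 328, with a counting interval of 128 to 1209 that ignores the spread between neurons. Of the 710 counts, experiment 2 held 340 and experiment 1 held 254, and both are among the first-listed libraries. Sox14 reached 109.9 CPM in experiment 2, 91.4 CPM in experiment 1, 63.1 CPM in experiment 52 and 34.6 CPM in experiment 37, and no control library reached 10 CPM. All 4 of these libraries had Gad1 at 224 CPM or more and Gad2 at 114 CPM or more. Th in them was at 3506 CPM in experiment 2, 5015 CPM in experiment 1, 1302 CPM in experiment 52 and 3439 CPM in experiment 37.

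Lhx5, a LIM homeodomain factor, was at 10 CPM or more in 5 experiment and 2 control libraries, led by experiment 3 at 172.6 CPM and control 4 at 75.5 CPM. Experiment 1, 2 and 52 had both Lhx5 and Sox14. Dlx2, known from forebrain GABAergic neurons, was nearly confined to experiment 2 at 105.4 CPM, which held 94.8% of the experiment counts, with 2 counts in control. That library also had Gata3 at 173 CPM. C1ql2 was at 10 CPM or more in 9 experiment and 7 control libraries and reached 255 CPM in experiment 2 and 206 CPM in control 7. The part of neighbouring cells in these libraries was not tested.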
